A study of Mus musculus with 22 samples.

Results

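The 8 liver genes described here separated C57BL/6 mice of 2 vendors, and they were followed into germ-free mice and into germ-free mice given cecal contents of either vendor. The genes were Serpine2, Obp2a, Camk2b, Dclk3, Rad51b, Tmem98, Tmem86a and Cyp2a22, which are 8 of the 23909 gene symbols in the table and 8 of the 12264 genes tested. They were chosen by their RPKM in the TAC and JAX libraries, which do not overlap, so the vendor difference is given below as a description, with no test. Of the genes tested, 1008 (8.22%) had no overlap between TAC and JAX. The question put to the other libraries was on which vendor's side each gene lay.

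Poly(A) RNA from fasted male livers was sequenced in 22 libraries of 5 groups, all C57BL/6. GF_TAC (n = 5) and GF_JAX (n = 5) were germ-free mice inoculated with cecum material of Taconic or of Jackson mice, kept for 4 weeks and fasted for 16 h. GF (n = 4) were germ-free mice, and TAC (n = 4) and JAX (n = 4) were mice supplied by Taconic and by Jackson. The labels give hours of fasting for the recipients only, and ages, the substrain and source of the germ-free colony and whether each library is a separate animal are not given in the sources used here, so p-values may measure technical spread in part.

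The vendor groups differ in supplier, microbes and housing, and C57BL/6 colonies of different suppliers can also carry different alleles. Recipients of cecal contents serve to ask whether a vendor difference is seen with the microbes alone. The 8 genes belong to no common pathway. Serpine2 and Obp2a encode secreted proteins, Camk2b and Dclk3 encode kinases of the calmodulin-dependent group, Rad51b encodes a DNA repair protein, Tmem98 and Tmem86a encode proteins of the endoplasmic reticulum membrane and Cyp2a22 encodes a cytochrome P450.

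The sequence just before the start of transcription is shown for 4 genes, Serpine2 and Camk2b as 2 that lay at or beyond the TAC level in most germ-free and recipient libraries, and Obp2a and Cyp2a22 as 2 with libraries on both vendors' sides. Each line gives 250 bases upstream of the RefSeq start in the build GRCm38.p6, read 5′ to 3′ on the gene's strand, and capitals mark a TATA box, a CCAAT box or a GC box, searched on either strand with the letters given after the sequences.
Serpine2 (chr1:79858666-79858915, minus strand): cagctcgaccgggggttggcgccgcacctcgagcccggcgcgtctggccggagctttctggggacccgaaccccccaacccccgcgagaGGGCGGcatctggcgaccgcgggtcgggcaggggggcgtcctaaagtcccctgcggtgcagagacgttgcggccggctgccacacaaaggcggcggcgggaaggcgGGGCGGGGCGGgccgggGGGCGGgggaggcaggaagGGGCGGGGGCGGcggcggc
Camk2b (chr11:6065749-6065998, minus strand): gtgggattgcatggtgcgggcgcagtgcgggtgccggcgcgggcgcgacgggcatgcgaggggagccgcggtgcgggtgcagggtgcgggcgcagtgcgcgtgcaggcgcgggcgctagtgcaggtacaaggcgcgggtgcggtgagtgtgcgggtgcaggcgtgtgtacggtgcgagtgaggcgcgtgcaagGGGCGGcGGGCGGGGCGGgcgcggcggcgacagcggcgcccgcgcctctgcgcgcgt
Obp2a (chr2:25699824-25700073, plus strand): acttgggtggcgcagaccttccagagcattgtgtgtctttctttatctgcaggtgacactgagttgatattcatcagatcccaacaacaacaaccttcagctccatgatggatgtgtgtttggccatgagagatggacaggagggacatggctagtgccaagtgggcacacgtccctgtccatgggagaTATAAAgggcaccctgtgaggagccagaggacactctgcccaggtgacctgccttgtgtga
Cyp2a22 (chr7:26939387-26939636, minus strand): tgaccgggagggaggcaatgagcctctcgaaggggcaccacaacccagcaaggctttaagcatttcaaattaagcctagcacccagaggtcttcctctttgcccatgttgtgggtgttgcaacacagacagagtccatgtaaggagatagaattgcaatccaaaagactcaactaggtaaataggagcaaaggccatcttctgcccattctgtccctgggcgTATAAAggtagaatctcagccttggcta

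A promoter entry was found for 7 of the 8 genes, all but Dclk3. The TATA box letters, TATAAA, were present in 2 of the 7, Obp2a and Cyp2a22, against 12.4% of 32851 promoters of the same length, and it began 61 bases before the start in Obp2a and 28 before it in Cyp2a22. The GC box letters, GGGCGG, were present in 4 of the 7 (32.7% of all promoters), with 6 copies in Serpine2, where some overlap, and 3 in Camk2b. The CCAAT box letters, CCAAT, were present in 3 of the 7 (33.8% of all promoters). Obp2a and Cyp2a22 held 2 and 3 CG dinucleotides, while Serpine2 and Camk2b held 34 and 44, and the median promoter held 6. The members not shown did not divide in this way by placement. Rad51b, with 14 of 14 libraries on the TAC side, held 0 GC boxes and 7 or 9 CG dinucleotides, depending on the start used. Tmem86a, also with 14 of 14, held 1 GC box and 21 CG dinucleotides. Tmem98, with 9 libraries on the TAC side and 5 on the JAX side, held 3 and 20. These are matches of letters in a reference of another build than the reads were mapped to, and no binding or methylation was measured.

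Expression is given in RPKM, read counts scaled to transcript length and sequencing depth, as the authors computed them. To place a library, its log2(RPKM + 1) value was set on a scale on which the JAX mean is 0 and the TAC mean is 1, so that a position above 0.5 lies on the TAC side. The mean of GF_TAC lay on the TAC side for 7 of the 8 genes, that of GF_JAX for 8 of 8 and that of GF for 5 of 8. Among all 1008 genes without vendor overlap the same held for 42.7% in GF_TAC, 60.2% in GF_JAX and 50.1% in GF. Among the 28 genes other than the members that passed between TAC and JAX, it held for 46.4% in GF_TAC, 78.6% in GF_JAX and 57.1% in GF. Every library of the group, not only the mean, lay on the TAC side for 5 of the 8 genes in GF_TAC, 4 in GF_JAX and 5 in GF. Among the 1008 genes without vendor overlap this held for 22.6% in GF_TAC, 23.9% in GF_JAX and 28.4% in GF. Of the 112 single values, 33 of 40 in GF_TAC, 32 of 40 in GF_JAX and 24 of 32 in GF lay on the TAC side. Of the 40 values of mice given JAX contents, 4 fell within the JAX range, 11 in the gap between the vendors, 15 within the TAC range and 10 beyond it. In bulk liver, fewer cells of a type and less RNA per cell cannot be told apart in any of these levels.

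**Figure D1:**
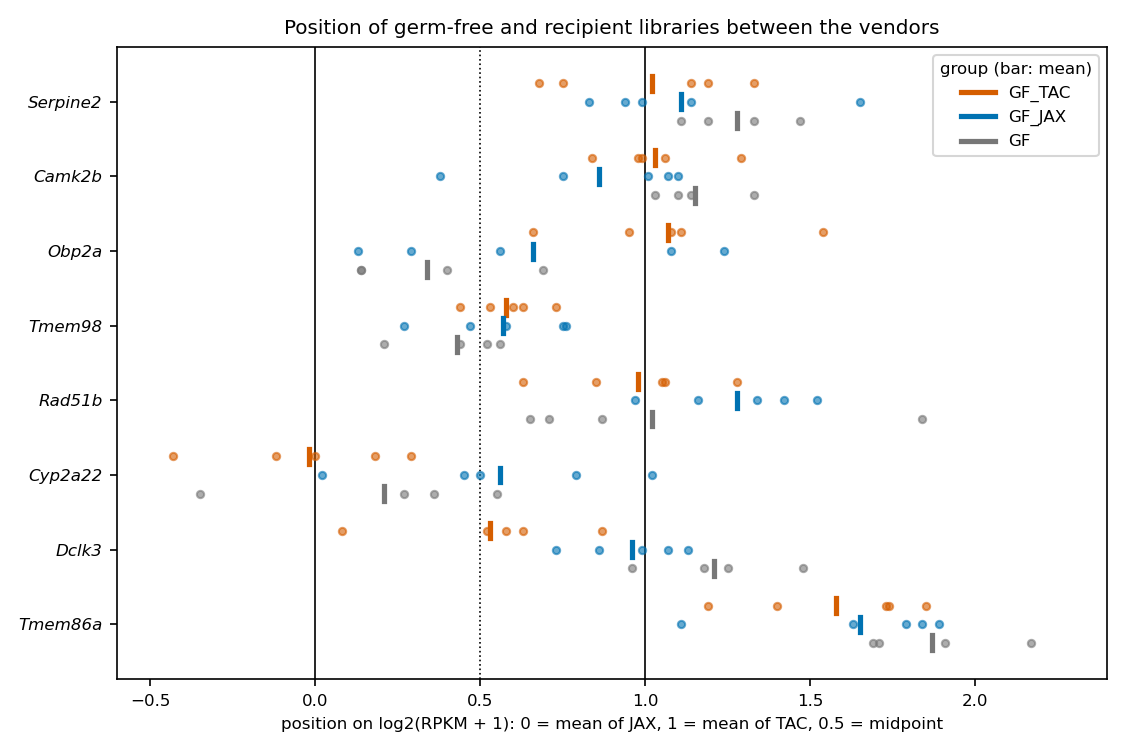
Position of each germ-free and recipient library between the vendors for the 8 genes, on the log2(RPKM + 1) scale, with the JAX mean at 0, the TAC mean at 1 and the midpoint at 0.5 (dotted). Points are libraries and bars are group means of GF_TAC (n = 5), GF_JAX (n = 5) and GF (n = 4). All 14 libraries lie right of the midpoint for Serpine2, Rad51b and Tmem86a, and 3 of 14 do for Cyp2a22.

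Libraries differed in a property that runs along most of the groups and divides GF_JAX. When a library's log2(RPKM + 1) values, less each gene's mean over all libraries, were regressed on the log2 length of the transcripts, the slope was positive in 10 libraries, namely all TAC and JAX libraries, GF_JAX 1 and GF_JAX 4. It was negative in the other 12, which were all GF_TAC and GF libraries (GF 2 close to 0, at -0.008) and GF_JAX 2, 3 and 5. Placing GF_TAC or GF against the vendors therefore cannot be told apart from this library type, while GF_JAX 1 and GF_JAX 4 share the type of the vendor libraries. With these 2 alone, the GF_JAX mean lay on the TAC side for 6 of the 8 genes, with Obp2a (0.21) and Cyp2a22 (0.48) on the JAX side. Depth was 1.33 to 3.73 M counted reads (M, 1e6) per library, as read from the steps of the low values.

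**Figure D2:**
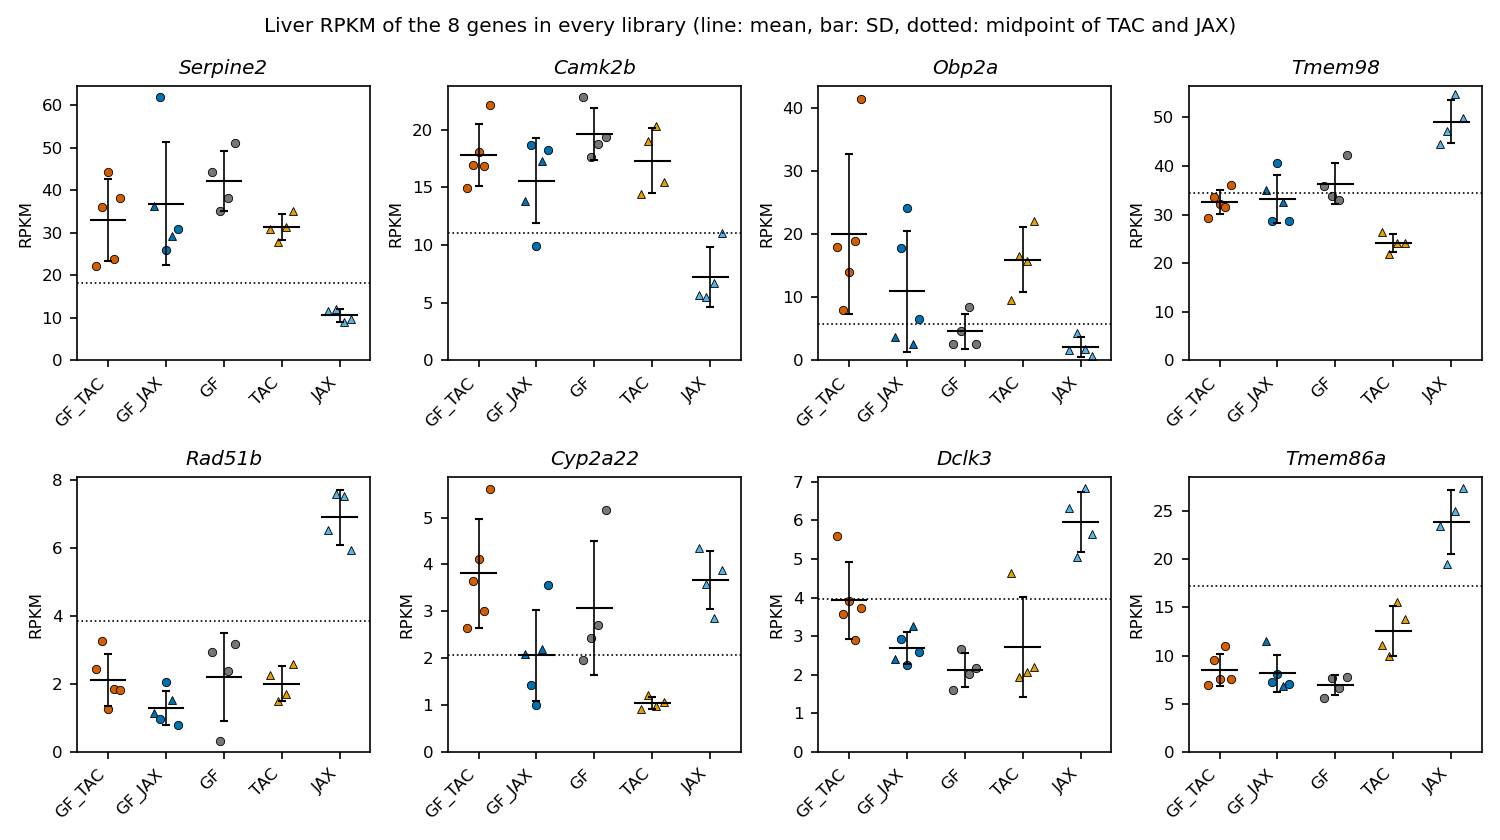
RPKM of the 8 genes in every library on linear axes from 0, by group in the order GF_TAC, GF_JAX, GF, TAC, JAX. Triangles are libraries of the positive and circles of the negative library type, bars are the mean ± SD and the dotted line is the midpoint between the vendors. TAC and JAX do not overlap in any panel, which is how the genes were chosen, and for Tmem98 all germ-free and recipient libraries lie between them.

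Serpine2 encodes protease nexin-1, a secreted serpin that inhibits thrombin, urokinase and plasmin. Its level was 22.2, 36.1, 44.4, 23.9 and 38.3 RPKM in GF_TAC, 36.4, 61.9, 26.0, 29.2 and 30.9 RPKM in GF_JAX and 44.2, 35.2, 38.3 and 51.1 RPKM in GF. The vendor libraries stood at 30.9, 27.8, 31.5 and 35.1 RPKM in TAC and at 11.7, 12.01, 8.91 and 9.71 RPKM in JAX. Every germ-free and recipient library was above every JAX library, those given JAX contents included, and every GF library was above every TAC library. The positions were 1.02 in GF_TAC, 1.11 in GF_JAX and 1.28 in GF. Donor contents did not separate the recipients: the mean was 33.0 ± 9.56 RPKM in GF_TAC and 36.9 ± 14.5 RPKM in GF_JAX (SD, n = 5 each), a log2 difference of -0.13 (95% interval -0.55 to 0.28, limma adjusted p = 0.798). The corresponding vendor difference was 1.49. Without GF_JAX 2, the highest library, the donor difference was 0.07.

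The proteases and inhibitors of thrombin and plasminogen around Serpine2 gave 0 calls among 14 tested genes of 15 in each of the comparisons GF_TAC minus GF_JAX, GF_JAX minus GF and GF_TAC minus GF. Their median log2 differences were -0.25, 0.15 and -0.10, beside 0.009, -0.002 and -0.005 over all genes tested. F2, the precursor of thrombin and the most abundant of them, averaged 537 ± 52.0 RPKM in GF_TAC and 695 ± 118 RPKM in GF_JAX (SD, n = 5 each; limma adjusted p = 0.301).

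Obp2a, also named Lcn13, encodes a secreted lipocalin, a carrier of small hydrophobic molecules that has been studied in mouse liver for its part in glucose and lipid metabolism. Its level was 17.9, 7.97, 13.9, 18.9 and 41.4 RPKM in GF_TAC, 3.70, 17.8, 24.1, 2.51 and 6.49 RPKM in GF_JAX and 2.61, 4.62, 8.52 and 2.58 RPKM in GF. TAC livers had 9.59, 16.5, 15.8 and 21.99 RPKM and JAX livers had 1.58, 4.30, 1.71 and 0.646 RPKM. Of the GF_TAC libraries, 3 lay within the TAC range, 1 in the gap between the vendors and 1, GF_TAC 5 at 41.4 RPKM, beyond the TAC range. On the JAX side lay 3 of 4 GF libraries, and the GF_JAX libraries were spread over both sides. Positions were 1.07 in GF_TAC, 0.66 in GF_JAX and 0.34 in GF, and Obp2a was the member with the largest vendor difference (2.55). Adjusted for library type, the positions were 0.32 in GF_TAC, 0.21 in GF_JAX and -0.41 in GF, all on the JAX side. The values rest on 12 to 70 reads in GF_TAC, 2 to 28 in GF_JAX, 2 to 11 in GF, 13 to 26 in TAC and 1 to 9 in JAX.

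For Obp2a the donor difference had the sign of the vendor difference. GF_TAC averaged 20.01 ± 12.7 RPKM and GF_JAX 10.9 ± 9.54 RPKM (SD, n = 5 each), a log2 difference of 1.04 (95% interval 0.03 to 2.05) that did not pass over all genes (limma unadjusted p = 0.0447, adjusted p = 0.361). The exact permutation test over the 252 splits of these 10 libraries, two-sided, gave p = 0.167, where the smallest p it allows is 0.00794. With 1 library left out the donor difference ran from 0.70 to 1.41, and it was 0.74 without GF_TAC 5, the highest library. GF_TAC also stood above GF, by 1.85 (95% interval 0.77 to 2.92, limma unadjusted p = 0.00178, adjusted p = 0.225). GF_JAX stood above GF by 0.81 (95% interval -0.27 to 1.88, limma adjusted p = 0.449).

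Obp2a was also the 1 member that moved with the library type. GF_JAX 1 and GF_JAX 4, of the vendor type, had 3.70 and 2.51 RPKM, against 17.8, 24.1 and 6.49 RPKM in GF_JAX 2, 3 and 5, with no overlap. The type term of the fit was -1.91 for the positive type (95% interval -3.11 to -0.70, limma adjusted p = 0.0210), a call that 25.2% of all genes tested shared, and that none of the other 7 members did (adjusted p from 0.480 to 0.939). With the type as a term, or without GF_JAX 1 and 4, the donor difference was 0.28 (95% interval with the term -0.69 to 1.24, limma adjusted p = 0.840) and GF_JAX minus GF was 1.57. GF_TAC minus GF remained 1.85 with the term (limma adjusted p = 0.0742), since both groups are of the same type. The part of the library type in the donor difference of Obp2a was not tested beyond these fits, and it rests on 2 libraries.

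**Figure D3:**
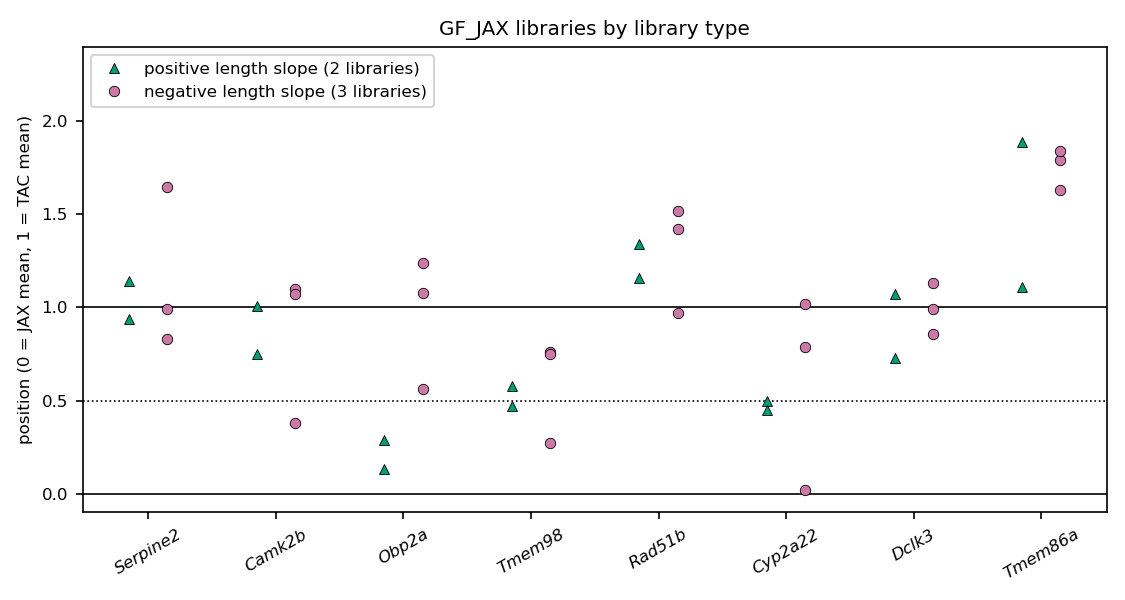
Position of the GF_JAX libraries of the positive library type (GF_JAX 1 and 4) and of the negative type (GF_JAX 2, 3 and 5) for the 8 genes, on the scale with the JAX mean at 0 and the TAC mean at 1. For Obp2a the means are 0.21 and 0.96, and for the other 7 genes both types overlap in RPKM.

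Lipocalins as a list showed no call in any of the same comparisons, with 9 of 14 genes tested and median log2 differences of -0.21 (GF_TAC minus GF_JAX), -0.02 (GF_JAX minus GF) and -0.16 (GF_TAC minus GF). Rbp4, the plasma carrier of retinol and the most abundant lipocalin here, averaged 780 ± 106 RPKM in GF_TAC and 1089 ± 266 RPKM in GF_JAX (SD, n = 5 each; limma adjusted p = 0.326). Obp2b, a close relative that lies near Obp2a on chromosome 2, did not reach the expression filter. How reads shared by such relatives were counted is not given in the sources used here, so the values of Obp2a are uncertain in that respect.

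Camk2b encodes the beta subunit of calcium/calmodulin-dependent protein kinase II. Its level was 14.96, 16.9, 18.1, 16.9 and 22.1 RPKM in GF_TAC, 13.8, 18.7, 9.92, 17.3 and 18.3 RPKM in GF_JAX and 22.9, 17.7, 18.8 and 19.4 RPKM in GF. TAC livers had 14.4, 19.1, 20.3 and 15.5 RPKM and JAX livers 5.64, 5.45, 6.75 and 11.1 RPKM. GF_TAC, GF and all GF_JAX libraries but GF_JAX 3 lay on the TAC side, at mean positions of 1.03 in GF_TAC, 0.86 in GF_JAX and 1.15 in GF. The donor difference was 0.20 (95% interval -0.16 to 0.56, limma adjusted p = 0.633), beside a vendor difference of 1.19. Among the calmodulin-dependent kinases and their partners, 10 of 18 genes were tested and 0 were called in any of the comparisons, with median differences between -0.01 and 0.03. Calm2, a gene for calmodulin, averaged 145 ± 8.41 RPKM in GF_TAC and 152 ± 20.9 RPKM in GF_JAX (SD, n = 5 each; limma adjusted p = 0.819).

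Dclk3 encodes a doublecortin-like kinase of the same kinase group. Its level was 5.58, 3.57, 3.90, 2.90 and 3.72 RPKM in GF_TAC, 2.41, 2.92, 2.26, 3.27 and 2.59 RPKM in GF_JAX and 1.602, 2.68, 2.02 and 2.18 RPKM in GF. TAC livers had 4.64, 1.94, 2.06 and 2.21 RPKM and JAX livers 6.31, 5.06, 6.84 and 5.65 RPKM. Here GF lay around the 3 lower TAC libraries, and GF_JAX lay above these 3 but within the TAC range. GF_TAC stood higher on average, overlapping GF_JAX, with GF_TAC 1 inside the JAX range. The recipients of TAC contents were thus farther from TAC than the recipients of JAX contents, at positions of 0.53 in GF_TAC, 0.96 in GF_JAX and 1.21 in GF. GF_TAC averaged 3.93 ± 0.997 RPKM and GF_JAX 2.69 ± 0.407 RPKM (SD, n = 5 each), a log2 difference of 0.40 (95% interval 0.05 to 0.76), while the vendor difference was -0.96. The donor difference did not pass over all genes (limma unadjusted p = 0.0272, adjusted p = 0.315; exact permutation p = 0.0238, two-sided).

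Dclk3 was also the 1 member whose GF_TAC and GF libraries did not overlap, as was the case for 3.79% of all genes tested. The log2 difference GF_TAC minus GF was 0.65 (95% interval 0.28 to 1.03, limma unadjusted p = 0.00165, adjusted p = 0.223). It had the narrowest gap between vendors, 0.10 on the log2 scale, since TAC 1 (4.64 RPKM) stood near the lowest JAX library (5.06 RPKM). Without TAC 1 the position of GF_TAC was 0.43, on the JAX side, that of GF_JAX 0.78 and that of GF 0.99. Adjusted for library type, the position of GF_TAC was 0.44. Just outside the rule lay Cyp7b1, a bile acid synthesis enzyme, with 107, 188, 187 and 158 RPKM in TAC and 94.0, 112, 84.9 and 64.1 RPKM in JAX, where TAC 1 fell below JAX 2.

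Rad51b encodes a protein of DNA repair by homologous recombination. Its level was 2.43, 3.25, 1.26, 1.84 and 1.81 RPKM in GF_TAC, 1.13, 0.971, 2.05, 1.54 and 0.794 RPKM in GF_JAX and 2.93, 0.314, 2.37 and 3.16 RPKM in GF. TAC livers had 2.26, 1.48, 1.69 and 2.59 RPKM and JAX livers 6.53, 7.60, 7.52 and 5.93 RPKM. All 14 germ-free and recipient libraries were below all JAX libraries and on the TAC side, at positions of 0.98 in GF_TAC, 1.28 in GF_JAX and 1.02 in GF. Counting error is wide here: 5 to 16 reads lay behind each GF_TAC value, 2 to 5 behind each GF_JAX value, 2 to 11 behind GF and 5 to 10 behind TAC, against 27 to 52 behind JAX. A count of 2 reads has a 95% Poisson interval of 0.242 to 7.23 reads. The donor difference was 0.43 (95% interval -0.08 to 0.95, limma adjusted p = 0.452), opposite in sign to the vendor difference of -1.40.

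Tmem98 encodes a membrane protein that binds the transcription factor MYRF and holds back its self-cleavage. Its level was 29.3, 33.7, 32.2, 31.5 and 36.0 RPKM in GF_TAC, 35.0, 28.7, 40.6, 32.6 and 28.7 RPKM in GF_JAX and 36.0, 33.9, 33.0 and 42.3 RPKM in GF. TAC livers had 26.4, 21.9, 24.2 and 24.1 RPKM and JAX livers 44.5, 47.2, 54.8 and 49.8 RPKM. All 14 germ-free and recipient libraries lay in the gap between the vendors, above every TAC library and below every JAX library. Tmem98 was the 1 member of which this held, and its positions were 0.58 in GF_TAC, 0.57 in GF_JAX and 0.43 in GF. GF_TAC averaged 32.5 ± 2.503 RPKM and GF_JAX 33.1 ± 4.97 RPKM (SD, n = 5 each), a log2 difference of -0.02 whose 95% interval, -0.22 to 0.18, was the narrowest among the 8 genes (limma adjusted p = 0.963). The vendor difference was -0.99. The sign of the donor difference was positive under several other settings, with values up to 0.06. Myrf, the other gene of its list that could be tested, averaged 11.1 ± 1.33 RPKM in GF_TAC and 13.3 ± 3.93 RPKM in GF_JAX (SD, n = 5 each; limma adjusted p = 0.577).

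Tmem86a encodes a lysoplasmalogenase, which cleaves the vinyl ether bond of lysoplasmalogens, a class of ether lipids. Its level was 6.96, 9.53, 7.59, 10.95 and 7.54 RPKM in GF_TAC, 11.5, 7.28, 8.13, 6.80 and 7.04 RPKM in GF_JAX and 5.55, 7.69, 6.67 and 7.82 RPKM in GF. TAC livers had 11.1, 9.90, 15.6 and 13.8 RPKM and JAX livers 23.5, 19.5, 24.98 and 27.4 RPKM. All germ-free and recipient libraries were below all JAX libraries, and 12 of the 14 were also below the lowest TAC library, the exceptions being GF_TAC 4 and GF_JAX 1. Positions therefore ran past the TAC mean, to 1.58 in GF_TAC, 1.65 in GF_JAX and 1.87 in GF. The donor difference was 0.06 (95% interval -0.25 to 0.38, limma adjusted p = 0.885) and the vendor difference -0.88. Of 14 enzymes of ether lipids and plasmalogens, 12 were tested and 0 were called, with median log2 differences between -0.06 and 0.06. Tmem86b, a second lysoplasmalogenase and the most abundant of them, averaged 144 ± 9.41 RPKM in GF_TAC and 152 ± 33.2 RPKM in GF_JAX (SD, n = 5 each; limma adjusted p = 0.869).

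Cyp2a22 encodes a cytochrome P450 of the 2A subfamily, whose genes lie in a cluster on chromosome 7. Its level was 2.65, 3.65, 4.11, 3.01 and 5.62 RPKM in GF_TAC, 2.08, 1.43, 1.01, 2.20 and 3.57 RPKM in GF_JAX and 1.96, 2.44, 2.71 and 5.17 RPKM in GF. TAC livers had 0.923, 1.21, 0.987 and 1.06 RPKM and JAX livers 4.35, 3.58, 2.86 and 3.88 RPKM. All GF_TAC libraries lay on the JAX side and above every TAC library, while GF_JAX spanned the range from the TAC to the JAX level and GF lay mostly nearer to JAX. GF_JAX 1 stood almost at the midpoint, at 2.08 RPKM. The positions were -0.02 in GF_TAC, 0.56 in GF_JAX and 0.21 in GF, so the mice given TAC contents stood nearer to JAX than those given JAX contents.

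The donor difference of Cyp2a22 was 0.68 (95% interval 0.24 to 1.12), against a vendor difference of -1.18. GF_TAC averaged 3.81 ± 1.16 RPKM and GF_JAX 2.06 ± 0.976 RPKM (SD, n = 5 each). It did not pass over all genes (limma unadjusted p = 0.00440, adjusted p = 0.197), and the exact permutation test, two-sided, gave p = 0.0238. Each TAC value rested on 5 reads, with a 95% Poisson interval of 1.62 to 11.7 reads, and the others on 14 to 38 reads in GF_TAC, 3 to 11 in GF_JAX, 9 to 19 in GF and 20 to 30 in JAX. Cyp2a genes are close copies of each other, and how shared reads were counted is not given in the sources used here. Of 12 genes of the Cyp2a, Cyp2b and Cyp2f cluster, 8 were tested and 0 were called, with median log2 differences of 0.14 (GF_TAC minus GF_JAX), -0.06 (GF_JAX minus GF) and 0.01 (GF_TAC minus GF). Cyp2f2, the most abundant of them, averaged 349 ± 39.7 RPKM in GF_TAC and 499 ± 137 RPKM in GF_JAX (SD, n = 5 each; limma adjusted p = 0.197).

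**Figure D4:**
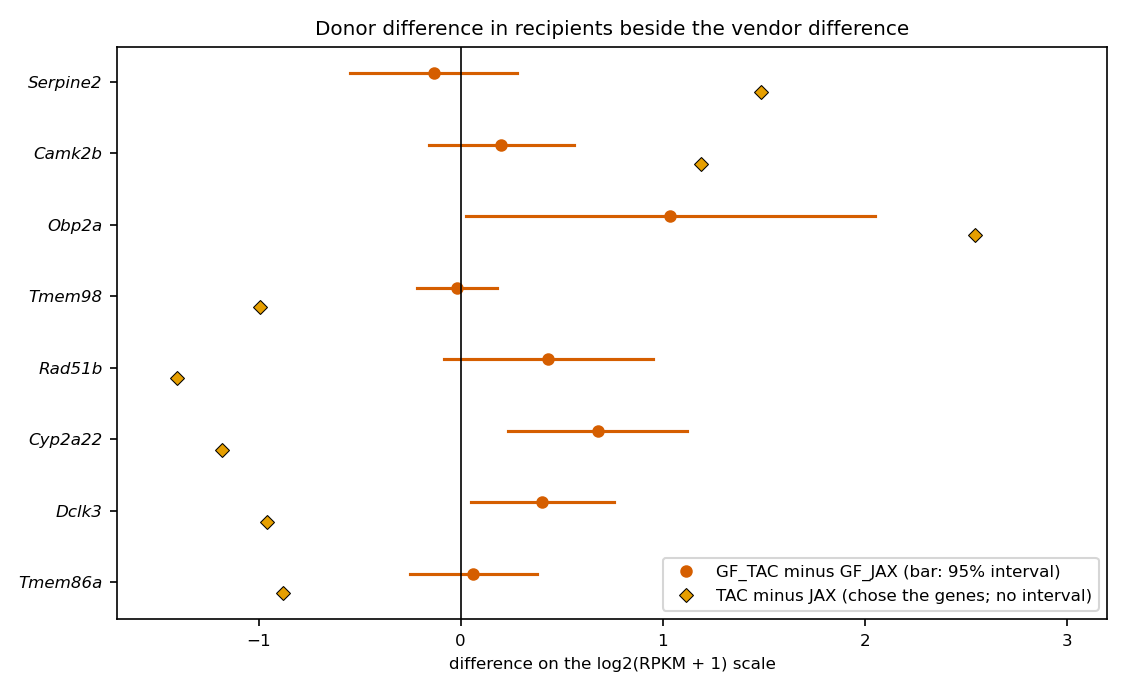
Log2 difference GF_TAC minus GF_JAX of the 8 genes with its 95% interval from limma (circles), beside the difference TAC minus JAX that chose the genes (diamonds, no interval), on the log2(RPKM + 1) scale. The signs of circle and diamond differ for Serpine2, Rad51b, Cyp2a22, Dclk3 and Tmem86a.

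Across the 8 genes, 0 were called between GF_TAC and GF_JAX (limma, adjusted p from 0.197 to 0.963), where 21 of 12264 genes (0.171%) were. At an unadjusted p under 0.05 there were 3 of 8, Obp2a, Cyp2a22 and Dclk3, against 13.3% of all genes, and the exact permutation test put Cyp2a22 and Dclk3 under 0.05. None of the 8 had recipient groups without overlap, against 1.81% of all genes. The sign of the donor difference was that of the vendor difference for 3 of 8, Obp2a, Camk2b and Tmem98. The median of the 8 differences was 0.30, beside 0.009 over all genes, and their median size was 0.30, beside 0.14.

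Colonisation was examined in the comparisons GF_JAX minus GF and GF_TAC minus GF, which share the GF libraries. In GF_JAX minus GF, no member was without overlap (2.7% of all genes were) and 0 of 8 were called (limma adjusted p from 0.363 to 0.580; 0 of 8 at an unadjusted p under 0.05), where 75 genes (0.612%) were called and 15.9% fell under 0.05 unadjusted. In GF_TAC minus GF, 0 of 8 were called (limma adjusted p from 0.223 to 0.968; 2 of 8 under 0.05 unadjusted, Obp2a and Dclk3), where 25 genes (0.204%) were called and 8.49% fell under 0.05 unadjusted. No permutation test was run on these comparisons. Median log2 differences of the 8 genes were -0.19 in GF_JAX minus GF and 0.16 in GF_TAC minus GF.

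Set against the vendors themselves, GF_TAC did not overlap TAC for 2 of 8 genes (26.5% of all genes tested) and did not overlap JAX for 6 of 8 (26.8%). GF_JAX did not overlap TAC for 1 of 8, Tmem98 (6.35% of all genes), and did not overlap JAX for 5 of 8 (10.9%). GF did not overlap TAC for 5 of 8 (25.8%) and JAX for 6 of 8 (27.9%). Since the TAC and JAX values chose the members, these counts are a description, and the shares over all genes, which were not so chosen, are no measure for them. When the 5 groups were ordered by mean for each gene, 5 of the 32 neighbouring pairs did not overlap: TAC over JAX for Serpine2, JAX over GF and GF_TAC over TAC for Tmem98, JAX over GF for Rad51b and JAX over TAC for Tmem86a. GF had the highest mean of Serpine2 and Camk2b, GF_TAC that of Obp2a and Cyp2a22, and JAX that of Tmem98, Rad51b, Dclk3 and Tmem86a.

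A set of 3 genes known to differ between C57BL/6 substrains serves as a comparison for the germ-free colony. Nnt, a mitochondrial transhydrogenase, averaged 59.9 ± 3.91 RPKM in GF_TAC, 67.4 ± 17.4 in GF_JAX, 57.04 ± 3.40 in GF, 82.2 ± 8.52 in TAC and 42.7 ± 1.10 in JAX, with the germ-free and recipient groups at 0.44 to 0.66 between the vendors. Wdfy1 averaged 9.53 ± 2.86 RPKM in GF_TAC, 10.99 ± 3.77 in GF_JAX, 8.72 ± 1.45 in GF, 23.9 ± 5.85 in TAC and 7.74 ± 2.05 in JAX, at positions of 0.11 to 0.29. Entpd4 averaged 34.7 ± 1.26 RPKM in GF_TAC, 40.4 ± 5.33 in GF_JAX, 32.3 ± 6.57 in GF, 21.9 ± 0.959 in TAC and 40.0 ± 5.64 in JAX, at positions of -0.02 to 0.37. On group means, Wdfy1 and Entpd4 lay toward JAX in all germ-free and recipient groups, where Serpine2, Camk2b, Rad51b and Tmem86a lay toward TAC. Single libraries did not all follow: for Entpd4, 2 of 4 GF libraries lay on the TAC side. For Wdfy1, 1 of 5 did in GF_TAC and 1 of 5 in GF_JAX. For Camk2b, 1 of 5 GF_JAX libraries lay on the JAX side. The library type limits these placements too. Nnt lay near the midpoint or past it toward TAC, at 0.52 in GF_TAC, 0.66 in GF_JAX and 0.44 in GF. The 3 markers therefore did not share a side. None of the 3 was called between the recipients or against GF.

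Fewer of the members' profiles were related once the vendor libraries, which chose them, were left out. Of 28 pairs of members, 16 had a Pearson r of at least 0.5 in size over all 22 libraries, but 2 did over the 14 germ-free and recipient libraries, which the choice did not use. Serpine2 and Camk2b were the closest pair (r = 0.83 over 22 and 0.54 over 14). Leaving out the vendor libraries removes the vendor contrast and also their contrast with the germ-free and recipient libraries. The parts of these in the fall of r were not tested. These libraries share groups, depth and library type, so r is a description.

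The gene most like a member by Pearson r, among 11395 candidates over 22 libraries, was Cntnap1 for Tmem86a (r = 0.949, and 0.758 over the 14). Cntnap1 averaged 0.608 RPKM in GF_TAC, 0.910 in GF_JAX, 0.533 in GF, 5.52 in TAC and 11.1 in JAX, and Impa2, the next (r = 0.930), averaged 6.83, 7.25, 5.21, 16.2 and 29.6 RPKM in the same groups, so both were also lowest in the germ-free and recipient groups. For Dclk3 the closest were Cyp46a1 (r = 0.809, and 0.876 over the 14) and Pparg (0.797 and 0.734). Pparg, a nuclear receptor of lipid storage, averaged 14.9 RPKM in GF_TAC, 10.3 in GF_JAX, 7.14 in GF, 10.1 in TAC and 17.1 in JAX, the order of groups seen for Dclk3 apart from GF_JAX and TAC. For Obp2a they were Pnrc2 (0.756 and 0.856) and Klhl22 (0.731 and 0.676), for Cyp2a22 Zscan26 (0.764 and 0.748) and Peg3 (0.762 and 0.761). For Serpine2 they were Pid1 (0.840 and 0.660) and Camk2b, for Camk2b Serpine2 and Slc1a2 (0.825 and 0.662), for Tmem98 Il4ra (0.756 and 0.487) and Rtn4 (0.749 and 0.513), and for Rad51b Arrdc4 (0.809 and 0.654) and Tmem181a (0.786 and 0.549).

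Hepatocyte markers summed to at least 2699 RPKM in every library. Of the genes of 13 marker lists, 0 were called between the recipients, between recipients and GF, or between the vendors. Over all genes tested, 0.171% to 0.612% were called in the comparisons without vendor libraries, and 36 genes between the vendors. No germ-free or recipient group was tested against a vendor group, so the count of 0 does not cover the placements. Stellate cell and fibroblast markers, of interest for Serpine2, which mesenchymal cells express, summed to 173 to 224 RPKM in GF_TAC, 141 to 201 in GF_JAX, 164 to 209 in GF, 135 to 165 in TAC and 120 to 161 in JAX (8 of 8 tested). Their TAC and JAX ranges overlapped. Serpine2 was chosen for having no such overlap, so its vendor ranges cannot be set against those of the markers. All GF_TAC and GF sums were above all JAX sums, as were the Serpine2 values of these groups. The GF_JAX sums overlapped those of JAX, while the Serpine2 values of GF_JAX were all above those of JAX. Nervous tissue markers summed to 5.03 to 8.45 RPKM in GF_TAC, 4.59 to 7.33 in GF_JAX, 4.72 to 5.94 in GF, 2.09 to 3.28 in TAC and 1.70 to 3.38 in JAX (2 of 6 tested), with Snap25 and Nefl at 0 in every library. Pancreas markers summed to 36.9 to 63.9 RPKM in GF_TAC, 23.0 to 81.2 in GF_JAX, 49.0 to 66.6 in GF, 22.7 to 27.3 in TAC and 14.7 to 24.0 in JAX (2 of 8 tested), with Prss1, Ins1, Ins2 and Amy2a5 at 0 throughout. The part of cell makeup in the members' levels was not tested.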

How the data were processed

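Liver libraries were made from poly(A) RNA with a ThruPLEX kit, per the labels. The authors deposited 1 table of RPKM. The submitters' processing notes name Bowtie 1.0.0, Cuffdiff 2.1.1 and mm9; the annotation, the treatment of duplicates and shared reads and any scaling are not given in the sources used here. Of 24397 entries, 461 empty ones and 27 whose names had become date numbers were left out.

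Values were taken as log2(RPKM + 1), with a pseudocount of 1, so differences of low genes are understated. The 12264 genes that reached 1 RPKM in 4 or more libraries were fitted over all 22 libraries and 5 groups by limma 3.58.1 with a trend (R 4.3.3). Tests had no covariates and were two-sided, and p was adjusted by Benjamini and Hochberg's method across the 12264 genes, with a threshold of 0.05. Exact permutation tests, positions and figures used Python 3.11.15, numpy 2.4.6, scipy 1.17.1 and matplotlib 3.10.9. The fit was tested on simulated data. Members, gene lists and tests were chosen with earlier results of these data known. Named genes were all 8 members, the 2 genes most like each of them, the 3 substrain markers, the most abundant gene of each list without a called gene, and the gene just outside the rule, of which some are not reported here; the search for likeness left out the Mup family, clone names and predicted genes.

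RPKM carry no counts, so depth was read from low values: of 5332 low genes, 4787 (89.8%) were multiples of the value of 1 read in all libraries, to within 0.02 reads (in proportion above 10 reads). With transcript lengths of 3924 genes from GENCODE, a release of another build, this gave a median of 2.25 M reads (M, 1e6) for JAX 1 (quartiles 1.98 and 2.37). Reads came out whole, within 0.1 read, for 7 of the 8 genes; those of Obp2a are the fewest that give whole numbers, and Camk2b gave none. Intervals of reads cover counting error only. The length slope used 7530 genes. Same-numbered replicates of the recipient groups correlated at -0.12 to 0.15, so the numbers were not taken to pair libraries. Alternatives were other pseudocounts, filters and scalings, library type, depth or replicate number as a term, quality weights, fits of 2 groups and libraries left out.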

Additional observations from a re-analysis of the deposited data

Results flagged for a closer look

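Of 40 combinations of a gene and a group screened for 1 library far from the others of its group, 3 met the limit, and chance gives about 1 in 20. GF_JAX 2 had 61.9 RPKM of Serpine2, above the 26.0 to 36.4 RPKM of the other GF_JAX libraries. GF_JAX 1 had 11.5 RPKM of Tmem86a, above the 6.80 to 8.13 RPKM of the others. TAC 1 had 4.64 RPKM of Dclk3, above the 1.94 to 2.21 RPKM of the other TAC libraries.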

How the results depend on the processing

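The count of 0 called members in each of the 3 tested comparisons held under all 11 other settings and with each library of the compared groups left out; the lowest adjusted p any member reached was 0.0528 in GF_TAC minus GF_JAX, 0.0524 in GF_JAX minus GF and 0.0692 in GF_TAC minus GF. With the replicate block 0 members were called in each, and over all genes 7, 23 and 27 were, against 21, 75 and 25 without it; no pairing is given by the labels. Members with their mean on the TAC side numbered 5 to 7 of 8 in GF_TAC (5 when adjusted for library type), 6 to 8 in GF_JAX and 5 to 6 in GF over all settings; with 1 library left out they were 6 to 7, 7 to 8 and 5 to 6. The position of Obp2a in GF_TAC was 0.32 when adjusted for library type, on the JAX side. Donor differences near 0 changed sign: Tmem98 to 0.06 after rescaling to a common sum, 0.04 with depth as a term, 0.03 with quality weights and 0.01 with the type term or without GF_JAX 1 and 4. With 1 library left out the donor difference ran from -0.06 to 0.06 for Tmem98, -0.25 to 0.07 for Serpine2 and -0.02 to 0.18 for Tmem86a, and GF_TAC minus GF of Rad51b from -0.32 to 0.23. With quality weights, GF_JAX minus GF of Serpine2 was 0.01 and GF_TAC minus GF of Rad51b -0.07. The causes were not tested.

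Counts over all genes moved more than those of the members. GF_TAC minus GF_JAX gave 0 calls when fitted on its 2 groups alone, 11 without a filter, 31 after rescaling to a common sum and 5 to 111 with 1 library left out (111 without GF_JAX 5). GF_JAX minus GF gave 0 on its 2 groups alone, 26 with quality weights, 28 after rescaling, 38 without a filter, 46 with a pseudocount of 0.1, 45 with the type term, 29 without GF_JAX 1 and 4 and 6 to 251 with 1 library left out (6 without GF 1, 251 without GF_JAX 5). GF_TAC minus GF gave 79 with quality weights and 6 to 21 with 1 library left out (6 without GF 4). Few reads limit Rad51b, Cyp2a22 and Obp2a, and the library type limits every placement of GF_TAC and GF. It also limits those of GF_JAX in part, since GF_JAX 2, 3 and 5 are of the negative type.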

Other observations

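The 2 protein-coding genes on either side of each member were looked up after the members' values were seen: of these 32 neighbours, 17 were tested and 6 had no overlap between TAC and JAX. Wdfy1 lies 2 genes from Serpine2, and its positions of 0.17 in GF_TAC, 0.29 in GF_JAX and 0.11 in GF lay on the JAX side, opposite to those of Serpine2.

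The genes beside Cyp2a22 are Cyp2a5 and Cyp2a12, cytochromes P450 of the same subfamily. Cyp2a5 averaged 362 ± 56.6 RPKM in GF_TAC, 354 ± 97.1 in GF_JAX, 310.0 ± 60.4 in GF, 248 ± 25.6 in TAC and 164 ± 12.9 in JAX, higher in TAC than in JAX where Cyp2a22 was lower. Cyp2a12 averaged 310 ± 36.2 RPKM in GF_TAC, 359 ± 61.3 in GF_JAX, 321 ± 56.9 in GF, 316 ± 22.1 in TAC and 242 ± 23.2 in JAX. Myo1d, a myosin gene beside Tmem98, lay beyond the TAC mean in all 3 germ-free and recipient groups (positions 1.34 in GF_TAC, 1.59 in GF_JAX and 1.81 in GF), where Tmem98 lay midway. Spty2d1, beside Tmem86a, averaged 4.72 ± 0.843 RPKM in GF_TAC, 5.70 ± 1.21 in GF_JAX, 5.55 ± 0.553 in GF, 9.08 ± 0.379 in TAC and 7.98 ± 0.320 in JAX.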
